A study of Mus musculus with 4 samples.

Results

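The elastases and chymotrypsins of the mouse pancreas are serine proteases that acinar cells store as inactive precursors, and 7 of their genes (Cela1, Cela2a, Cela3a, Cela3b, Ctrb1, Ctrc and Ctrl) were followed here among the 32288 features of the deposited single-cell tables. The rule lists the members by name, as a gene family, and uses no measured value, although it was written with earlier results of these data known. They were read in pancreas cells of 4 mice of genotype Ptf1aCre-ERTM;ROSAYFP/+, backcrossed into CD-1. In these mice tamoxifen switches on the fluorescent protein EYFP through a Cre recombinase that is driven by Ptf1a, a gene active in adult acinar cells. Every mouse received 5 mg of tamoxifen a day, on 5 days a week, for 2 weeks by oral gavage. Injections of caerulein, a cholecystokinin analogue that causes pancreatitis, were begun at 10 weeks of age and were given 2 times a day on 5 days of each week. Caerulein lasted 2 weeks in 2 mice and 4 weeks in the other 2. EYFP-positive cells were sorted and their RNA was counted as unique molecular identifiers (UMIs) with 10x Genomics 3′ chemistry. All 4 mice carried the label and received caerulein, so no group shows the uninjured pancreas.

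Acinar cells make digestive enzymes in bulk, pack them in zymogen granules and release them into ducts. Elastases cut proteins after small residues and chymotrypsins after large aromatic or aliphatic ones; Ctrb1 encodes the abundant chymotrypsinogen B, Ctrc a chymotrypsin known to degrade trypsinogen, and Ctrl a chymotrypsin-like protease. In injured pancreas, acinar cells can lose their enzymes and take on ductal or mucin-producing features, a change called acinar-to-ductal metaplasia.

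The acinar gene programme depends on the transcription factor complex PTF1, which is known to bind an E-box of the form CACCTG paired with a TGGGAA box. The 250 bases before the transcription start are printed for the members the results turn on, 5′ to 3′ on the strand of the gene, with both motifs (either strand) in capitals. Sequences are RefSeq's, on build GRCm38.p6, where 6 of the 7 members were matched by symbol. The gene models of Cela2a and Cela3b in the annotation used below extend into their printed windows. By that annotation, part of each of these windows lies inside the gene.
Cela1 (chr15:100687921-100688170, minus strand): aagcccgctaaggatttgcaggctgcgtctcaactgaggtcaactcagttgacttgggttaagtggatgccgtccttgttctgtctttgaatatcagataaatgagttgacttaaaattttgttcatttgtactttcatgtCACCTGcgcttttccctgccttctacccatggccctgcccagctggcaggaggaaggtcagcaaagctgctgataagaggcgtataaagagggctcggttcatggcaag
Ctrb1 (chr8:111691011-111691260, minus strand): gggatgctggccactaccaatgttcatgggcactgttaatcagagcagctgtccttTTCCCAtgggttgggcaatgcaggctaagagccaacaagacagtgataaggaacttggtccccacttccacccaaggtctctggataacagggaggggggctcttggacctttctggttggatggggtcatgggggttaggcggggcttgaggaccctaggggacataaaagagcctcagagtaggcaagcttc
Cela2a (chr4:141826006-141826255, minus strand): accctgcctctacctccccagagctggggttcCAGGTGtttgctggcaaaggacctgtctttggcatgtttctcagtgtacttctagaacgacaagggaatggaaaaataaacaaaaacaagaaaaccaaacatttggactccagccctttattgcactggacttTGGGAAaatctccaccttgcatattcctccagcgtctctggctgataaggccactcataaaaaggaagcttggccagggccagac
Cela3a (chr4:137409792-137410041, minus strand): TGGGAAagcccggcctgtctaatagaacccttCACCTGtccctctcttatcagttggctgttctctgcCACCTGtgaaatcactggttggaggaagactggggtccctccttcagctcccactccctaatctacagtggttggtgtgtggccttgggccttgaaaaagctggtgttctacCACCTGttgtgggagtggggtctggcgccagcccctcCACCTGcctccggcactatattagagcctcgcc
Cela3b (chr4:137430521-137430770, minus strand): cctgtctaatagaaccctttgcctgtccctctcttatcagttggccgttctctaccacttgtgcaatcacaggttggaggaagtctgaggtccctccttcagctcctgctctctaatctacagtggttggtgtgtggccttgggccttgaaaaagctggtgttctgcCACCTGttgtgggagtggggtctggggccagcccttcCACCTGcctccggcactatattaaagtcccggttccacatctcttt
Cela1 held 1 CACCTG and no TGGGAA, Ctrb1 held 1 TGGGAA and no CACCTG, and Cela2a held 1 of each. Cela3b held 2 CACCTG, and the unprinted Ctrl window held 2 CACCTG and 1 TGGGAA box. Over all genes, CACCTG is in 17.2% and TGGGAA in 21.6% of 32851 promoter windows of this length, and both are in 3.91%. Only exact copies of these letters were counted, so a window without a match can still hold a variant of either motif. A match is a description of these letters and was not tested as a binding site. The Cela3a and Cela3b windows are 92.4% identical over 237 aligned bases, and Cela3a held 4 CACCTG matches and 1 TGGGAA box.

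Cela2a, Cela3a, Cela3b and Ctrc lie on chromosome 4 and all 7 are on the minus strand (GRCm38, GENCODE M21). Cela1 is at chr15:100674421-100687921, Ctrb1 at chr8:111686519-111691010 and Ctrl at chr8:105932003-105933862. Cela3a (chr4:137401554-137409791) and Cela3b (chr4:137420999-137430540) are neighbours. Their transcripts are 94.9% identical over 916 aligned bases, with an identical run of 163 bases, so how their counts were split between the pair is uncertain. Cela2a (chr4:141814962-141826160) lies inside the gene model of Ctrc (chr4:141814962-141846359), and 305 of its 1723 exonic bases (17.7%) are also exonic in Ctrc. Both models have their 3′ end at 141814962, and the method reads 3′ ends. The share of bases therefore does not bound how uncertain the counts of Cela2a and Ctrc are, and how their counts were split was not tested.

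The 4 mice gave 21140 cells, of which 13362 carry 1 of 8 cell type names deposited by the authors and 7778 carry none. Each mouse had 4715 to 6255 cells and 72459531 to 103610807 UMIs. Every named cell held an EYFP UMI, and 67 barcodes occurred in more than 1 mouse. Markers outside the family went with the names: 8 acinar markers summed to 59545 to 68286 CPM (the per-million share of all UMIs summed) in Acinar cells and to 542 to 1457 in MucinDuctal cells. The 6 mucin and duct markers summed to 2307 to 3514 CPM in Acinar and to 34445 to 125429 in MucinDuctal cells, where Muc5ac was at or near 0 (0 to 0.390 CPM). Cells named Acinar/MucinDuctal held both sets. Their depth differed between mice, with a median of 19556 UMIs per cell in 2-week mouse 2 against 2659 to 3555 in the other mice, while Acinar cells had 24008 to 32664.5. The part of this depth gap in the values of Acinar/MucinDuctal cells was not tested.

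In Acinar cells the 7 genes together took 28.1% ± 2.61 (SD, n = 4 mice) of all UMIs. Ctrb1 made up most of that sum: it was at 185743 and 238649 CPM in the 2-week mice 1 and 2, and at 246841 and 246866 CPM in the 4-week mice 1 and 2. Ctrb1 thus held 75.0% to 86.8% of the family's UMIs in every mouse. The method counts 3′ ends, 1 UMI per captured transcript, so levels are not scaled by length, and the longest coding transcripts of the 7 genes run from 878 to 1108 bases.

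Among the elastases Cela2a was the most abundant, at 22955 and 14570 CPM at 2 weeks and 23815 and 18732 CPM at 4 weeks. Cela3b was at 13435, 7044, 9930 and 10427 CPM in the same order of mice. Cela1, a pancreatic elastase that is also made outside the pancreas, was at 12048, 2894, 12466 and 7742 CPM. The low value of Cela1 belongs to 2-week mouse 2. The highest mouse exceeded the lowest by 4.31-fold for Cela1, against 1.33-fold for Ctrb1 and 1.24-fold for the summed family. Ctrl was at 10650, 7398, 10592 and 9279 CPM, and Ctrc, the least abundant chymotrypsin, at 2914, 4413, 3286 and 3141 CPM. 2-week mouse 2 was the lowest mouse for Ctrl and the highest for Ctrc.

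2-week mouse 2 stood apart for some members and not for others across cell types. In the 7 types with at least 20 cells in every mouse, it was the lowest mouse for Cela1 in 7, for Cela2a in 7, and for Cela3b and Ctrl in 6 each. For Ctrb1 it was lowest in 1 of 7 types, and for Ctrc in 1 of 7 while being highest in 4. Unlabelled cells without EYFP that held markers of 1 blood or stromal class showed the same mouse lowest for Cela1 in 4 of 5 classes, for Ctrl in 3, for Cela2a and Cela3b in 2, for Ctrb1 in 1 and for Ctrc in 0. In those cells 4-week mouse 1 was the lowest mouse in 5 of 5 classes for Ctrc, in 4 for Ctrb1 and the family sum, in 3 for Cela2a and Cela3b, and in 2 for Ctrl. What sets this mouse apart from the other 2-week mouse was not tested.

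Cela3a was far below the other members and differed widely between mice. Its Acinar level was 27.3 CPM in 2-week mouse 1, 0.173 in 2-week mouse 2, 0.268 in 4-week mouse 1 and 4.32 in 4-week mouse 2. A Cela3a UMI was found in 47.8%, 0.515%, 0.919% and 12.4% of the Acinar cells of these mice. Per 1000 UMIs of its neighbour Cela3b, Cela3a had 2.03, 0.0245, 0.0270 and 0.414. The ratio of the pair therefore differed between mice within each time point. MucinDuctal cells of 2 mice held no Cela3a UMI, and Cela3a is left out of the ratios below.

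**Figure D1:**
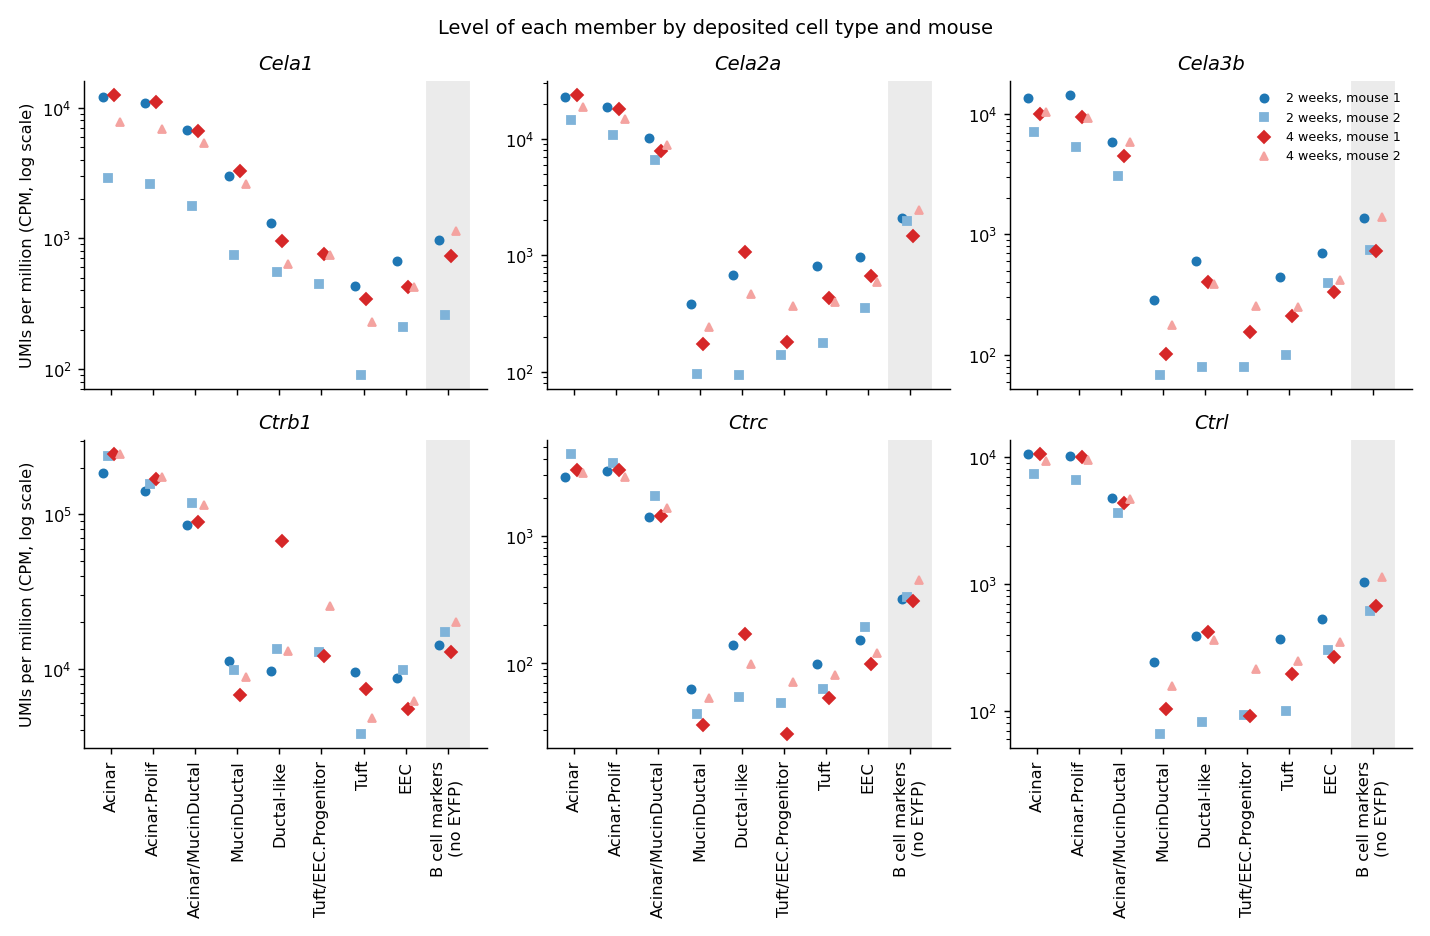
CPM (log scale) of 6 members in each deposited cell type and in unlabelled, EYFP-negative cells with B cell markers (shaded), 1 point per mouse and type with at least 20 cells. Cela1 was at a mean of 8787 in Acinar, 5107 in Acinar/MucinDuctal and 2394 in MucinDuctal cells, while Cela2a, Cela3b, Ctrb1, Ctrc and Ctrl in MucinDuctal cells lay below their level in the shaded cells.

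Across the deposited types the family sum was highest in Acinar cells (281465 ± 26094 CPM, SD, n = 4). It was 205974 ± 16624 CPM in Acinar.Prolif cells, which are proliferating acinar cells by name, and 125685 ± 14363 CPM in Acinar/MucinDuctal cells. The remaining types were far lower, at 28089 ± 28050 in Ductal-like, 18002 ± 7810 in Tuft/EEC.Progenitor (3 mice with at least 20 cells), 12190 ± 2170 in MucinDuctal, 9632 ± 2251 in EEC (enteroendocrine) and 7675 ± 3244 in Tuft cells. The ranges over mice of neighbours in this lower group overlapped, whereas those of the 3 types named for acinar cells did not. The wide spread of Ductal-like cells comes from Ctrb1 in the 23 cells of 4-week mouse 1, at 67117 CPM against 9708 to 13459 CPM in the others. The types were defined on these same counts, so no test between types is given.

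The 6 members other than Cela3a were lower in Acinar/MucinDuctal than in Acinar cells of the same mouse, Cela1 the least so. Cela1 kept 55.9%, 61.4%, 52.7% and 69.0% of its Acinar CPM in 2-week mice 1 and 2 and 4-week mice 1 and 2, a log2 ratio of -0.75 ± 0.17 (SD, n = 4). Cela2a, with the lowest mean, kept 44.3%, 45.2%, 33.1% and 47.0% (log2 -1.25 ± 0.23). In every mouse Cela1 stood above the other 5 members. These percentages depend on the scale: in mean UMIs per cell, Cela1 was at 413, 86.2, 427 and 310 in Acinar and at 78.4, 52.9, 46.9 and 34.6 in Acinar/MucinDuctal cells, a mean log2 ratio of -2.36. In both 4-week mice that is below the 60.7 and 47.6 UMIs per cell of MucinDuctal cells, which are deeper. On cells of at least 5000 UMIs the log2 ratio of CPM was -0.73 for Cela1 and -1.18 for Cela2a. That setting leaves out most Acinar/MucinDuctal cells in every mouse but 2-week mouse 2, and it can change the mix of clusters within the type. Ctrc (log2 -1.07 ± 0.11), Cela3b (-1.10 ± 0.18), Ctrl (-1.12 ± 0.14) and Ctrb1 (-1.18 ± 0.20) lay between. Their means are closer together than their spread over mice, and of 15 pairs of members 7 kept 1 order in all 4 mice, 5 of them the pairs with Cela1. Over the whole type Cela1 was thus reduced least and Cela2a lay below Ctrc and Ctrl in 4 of 4 mice, but the type pools clusters whose orders of members differ, and Cela1 was not the highest in each of them.

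**Figure D2:**
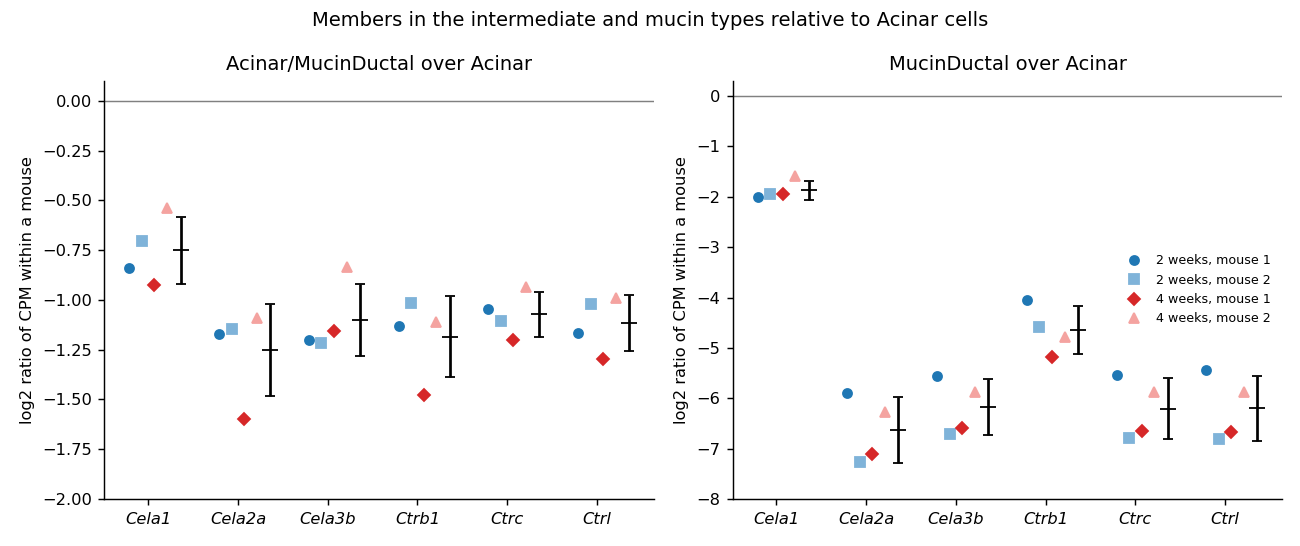
log2 ratio of each member's CPM to that in Acinar cells of the same mouse, for Acinar/MucinDuctal (left) and MucinDuctal cells (right); points are mice, and black marks are the mean ± SD over 4 mice. Cela1 is above the other members in both panels (means -0.75 and -1.87), and Ctrb1 is second in MucinDuctal cells (mean -4.65).

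In MucinDuctal cells the members separated widely. Cela1 was at 3000, 749, 3248 and 2580 CPM, which is 24.9%, 25.9%, 26.1% and 33.3% of its Acinar level (log2 -1.87 ± 0.19). Ctrb1 was at 11294, 9884, 6808 and 8906 CPM, or 6.08%, 4.14%, 2.76% and 3.61% (log2 -4.65 ± 0.48). Over all MucinDuctal cells the ranges of Cela1 and Ctrb1 do not overlap, and neither overlaps the range of the rest. For Ctrb1 this gap between ranges rests on the 10% of cells with the most of it. In the other cells it kept 2.58%, 1.43%, 1.06% and 1.10%, overlapping the range of Cela2a, Cela3b, Ctrc and Ctrl (0.625% to 2.33%). Within a mouse, Ctrb1 stayed above these 4 in 2-week mouse 1 (at most 2.33%), 2-week mouse 2 (at most 0.941%) and 4-week mouse 1 (at most 0.967%). In 4-week mouse 2 it was below Cela2a (1.24%), Cela3b (1.61%), Ctrc (1.63%) and Ctrl (1.65%). Leaving out cells by their Ctrb1 lowers Ctrb1 by construction. Cela2a was at 383, 95.2, 172 and 243 CPM, from 0.654% to 1.67% of its Acinar level (log2 -6.63 ± 0.65). Cela3b (-6.18 ± 0.56), Ctrl (-6.20 ± 0.65) and Ctrc (-6.21 ± 0.60) had means closer together than their spread. Cela2a, Cela3b, Ctrc and Ctrl lay under the UMIs per cell of B cell marker cells in 3 of 4 mice, and subtracting those left them no value in these 3. How much of their MucinDuctal counts is free RNA was not measured, so their order there, with Cela2a lowest, may not be that of the cells' own RNA. The share of Cela1 in the family's UMIs was 4.86%, 1.05%, 4.06% and 2.61% in Acinar cells and 19.6%, 6.87%, 31.0% and 21.3% in MucinDuctal cells.

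CPM is a share of a cell's RNA, and the family fills much of an acinar cell's, so less of the family makes the CPM of all other genes larger. The median log2 ratio to Acinar over 3978 genes of at least 10 CPM was 0.92 in Acinar/MucinDuctal and 1.26 in MucinDuctal cells. Scaled to UMIs outside a list of 32 measured digestive enzyme genes it was 0.24 and 0.21, and the family ratios became -1.88 and -5.62 in place of -1.17 and -4.54. Cela1 lay under those medians on either scale, and 97.0% of the 3978 genes lay above it in MucinDuctal cells. The scale without enzymes and mean UMIs per cell shift all members of a mouse alike, so they cannot change the order of the members. Cela1 remained the highest and Cela2a the lowest mean of the 6 in both types under settings that can change it. These were cells thinned to 1500 UMIs, cells of at least 5000 UMIs and cells with at least 2 EYFP UMIs. In MucinDuctal cells the limit on the low members just given applies here too.

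Among the other digestive enzymes on the list, 19 had at least 100 CPM in Acinar cells, with a median log2 ratio of -6.09 in MucinDuctal and -1.15 in Acinar/MucinDuctal cells. None of the 19 had a higher MucinDuctal ratio than Cela1, 4 exceeded Ctrb1, and 17 exceeded Cela2a. In Acinar/MucinDuctal cells 1 exceeded Cela1, the phospholipase Pla2g1b (-0.64 ± 0.18), followed by the lipase cofactor Clps (-0.76 ± 0.13). The lowest there were the trypsinogens Prss1 (-1.73 ± 0.41) and Prss3 (-1.62 ± 0.21). In MucinDuctal cells Pla2g1b (-2.22 ± 0.75), the kallikrein Klk1 (-2.65 ± 0.60), Clps (-3.11 ± 1.45) and the lipase Pnliprp2 (-4.20 ± 0.91) were those above Ctrb1. The enzymes Prss2, Cpa1, Cpb1 and Pnlip had lower CPM in MucinDuctal than in B cell marker cells. Prss2 was at 187 to 540 against 2101 to 3755 CPM, and Cpa1 at 167 to 381 against 1190 to 2023. How much of the low enzymes' MucinDuctal counts is free RNA was not measured, so ranks among them may not be those of the cells' own RNA.

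Free RNA from broken acinar cells can enter every droplet, so member UMIs were also counted in unlabelled cells that hold B cell markers and no EYFP, 122 to 162 cells per mouse. These cells, which do not make digestive enzymes, held 20098, 21232, 16805 and 26544 CPM of the family at median depths of 2895 to 3671 UMIs. Cela1 reached 69.8, 20.0, 60.7 and 47.6 UMIs per MucinDuctal cell against 3.97, 1.59, 3.91 and 4.40 UMIs per B cell marker cell. That is 10.8-fold to 17.6-fold over the background, and 8.56-fold to 38.7-fold when T cell, macrophage, fibroblast and endothelial marker cells are counted too. Ctrb1 was 1.83-fold to 4.47-fold over B cell marker cells (1.60-fold to 10.6-fold over all 5 classes). In CPM, which sets aside the greater depth of MucinDuctal cells, Cela1 was also higher there than in B cell marker cells (967, 258, 725 and 1127 CPM) in 4 of 4 mice, but Ctrb1 was lower in 4 of 4, with 14327, 17319, 12888 and 19979 CPM in B cell marker cells. Without the 10% of cells highest in Ctrb1, MucinDuctal cells held 111, 90.5, 49.5 and 49.9 Ctrb1 UMIs per cell against 58.8, 107, 69.5 and 78.0 in B cell marker cells, below them in 3 of 4 mice. Leaving out cells by their Ctrb1 lowers it by construction, and the B cell marker cells were not trimmed. That comparison therefore cannot tell whether the remaining cells exceed the background. Whether Ctrb1 in MucinDuctal cells as a whole exceeds the background depends on the scale.

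For the other 4 members MucinDuctal cells held at most 1.34-fold the UMIs per cell of B cell marker cells. Cela2a was at 8.92, 2.54, 3.22 and 4.49 UMIs per MucinDuctal cell against 8.55, 12.2, 7.99 and 9.56 in B cell marker cells, a ratio of 0.209 to 1.04. Ratios ran from 0.394 to 1.19 for Cela3b, 0.367 to 1.12 for Ctrc and 0.468 to 1.34 for Ctrl. Over all 5 classes the highest ratios were 1.34 for Cela2a, 1.45 for Cela3b, 1.95 for Ctrl and 3.93 for Ctrc. The ranges of Ctrl and Ctrc then overlapped that of Ctrb1, which began at 1.60. The highest ratios of Ctrl and Ctrc were against endothelial marker cells, of which there were 21 to 41 per mouse. The 1.60 of Ctrb1 was against macrophage marker cells, so the overlap sets 1 class against another. MucinDuctal cells had the greater depth, with medians of 15110 to 21810 UMIs per cell. Tuft cells, another non-acinar type, lay at 0.844 to 2.24 of the B cell marker level for Cela1 and at 0.712 to 3.35 for Ctrb1. The Cela1 level of MucinDuctal cells was thus outside the range of Tuft cells, while the ranges for Ctrb1 overlapped. EEC cells were at 1.19 to 2.60 for Cela1 and 0.978 to 2.29 for Ctrb1, and Tuft/EEC.Progenitor cells at 2.63 to 7.07 and 2.48 to 5.07 (3 mice). Ductal-like cells, at 3.22 to 14.7 for Cela1 and 3.75 to 19.2 for Ctrb1, overlapped MucinDuctal cells for both genes. Acinar/MucinDuctal cells, by contrast, lay above the background for each of these members, at 7.86-fold to 33.2-fold for Cela1, 9.08-fold to 32.8-fold for Ctrb1 and 5.96-fold to 16.1-fold for Cela2a.

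**Figure D3:**
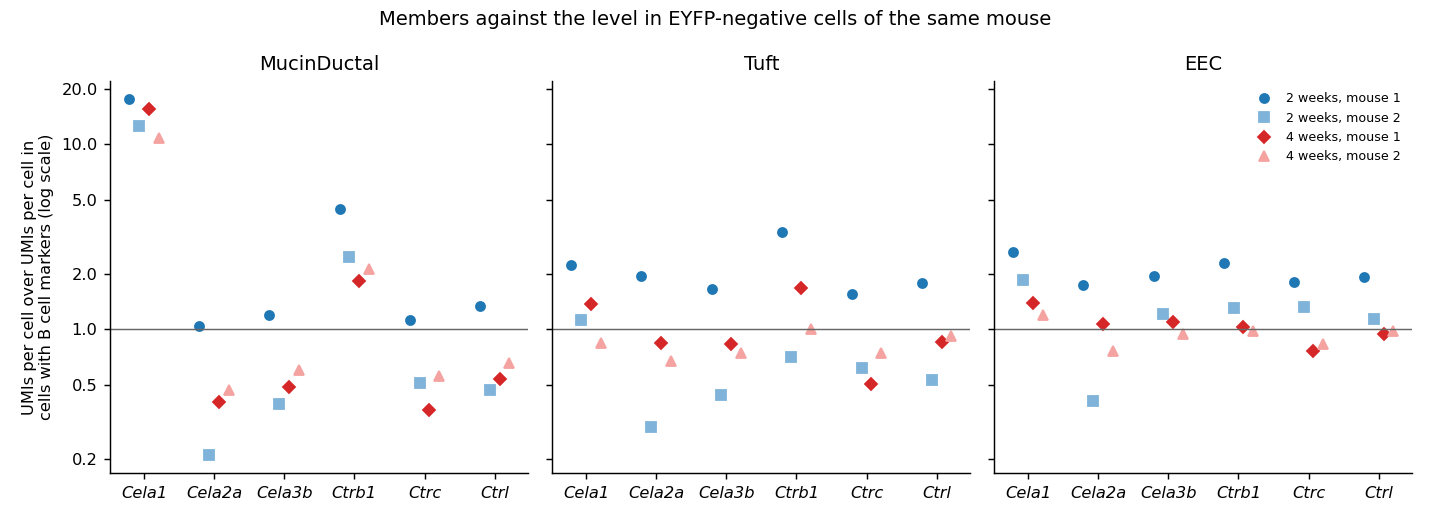
UMIs per cell of each member in MucinDuctal, Tuft and EEC cells divided by UMIs per cell in EYFP-negative cells with B cell markers of the same mouse (log scale, 1 point per mouse, line at 1). Cela1 in MucinDuctal cells sits between 10.8 and 17.6, Ctrb1 between 1.83 and 4.47, and the other members around or under 1.

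With every cell thinned to 1500 UMIs, a Cela1 UMI was found in 85.4%, 52.5%, 84.7% and 76.7% of MucinDuctal cells and in 78.2%, 16.1%, 32.3% and 59.8% of B cell marker cells. A Cela2a UMI was found in 40.7%, 15.1%, 24.0% and 32.2% of MucinDuctal cells and in 85.7%, 47.6%, 54.8% and 79.5% of B cell marker cells. Cela1 was more frequent in MucinDuctal cells in 4 of 4 mice and Cela2a in 0 of 4. Thinning left out 0 to 2 MucinDuctal and 2 to 15 B cell marker cells per mouse, and without it 97.0% to 100% of MucinDuctal cells held a Cela1 UMI.

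The deposited clusters divide both types into steps. Acinar/MucinDuctal cells fell mainly in the authors' clusters 3 and 4, with digestive enzymes at 34.7% to 37.1% and 10.3% to 15.5% of UMIs. In cluster 3 all members were within 55.4% and 87.0% of their Acinar level, and Ctrb1 was the lowest of the 6 in 4 of 4 mice (log2 -0.66 ± 0.18). Cela1 was the highest there in 3 of 4 mice, with Ctrc above it in 2-week mouse 1 (76.1% against 73.2%). In cluster 4 Cela1 kept 35.2%, 37.6%, 33.6% and 57.7%, and Ctrb1, at rank 2 or 3 of the 6, kept 22.3%, 26.4%, 19.4% and 25.6%. Cela2a was at rank 5 or 6 there with 13.4%, 14.1%, 12.8% and 23.0%. Cluster 4 was deep in 2-week mouse 2 (median 22738.5 UMIs per cell) and shallower in the others (2409 to 8353), and the part of depth in these percentages was not tested. The place of Ctrb1 among the members thus differed between the clusters, from rank 6 in cluster 3 to rank 1 or 2 in MucinDuctal cells.

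MucinDuctal cells were split into clusters 1 and 2, which differ in a list of 19 measured metaplasia genes (among them mucins, gastric peptides and duct genes) that holds no member. Those genes took 3.03% to 5.56% of UMIs in cluster 1 and 13.5% to 23.5% in cluster 2. Cela1 was at 1169, 474, 765 and 672 CPM in cluster 1 and at 3647, 1937, 3787 and 3986 CPM in cluster 2, a log2 difference of 2.14 ± 0.40. Cela1 was higher in the cluster with more metaplasia RNA in 4 of 4 mice. In cluster 1 Ctrb1 kept more of its Acinar level than Cela1 in 2-week mouse 1 (12.5% against 9.70%). Ctrb1 differed in the other direction, at 23165, 9905, 12054 and 10910 CPM in cluster 1 and 7093, 9792, 5669 and 7429 CPM in cluster 2. The mean of Ctrb1 (log2 -0.84 ± 0.72) was carried by 3 mice, since it was near 0 in 2-week mouse 2 (-0.02). That mouse had 1138 MucinDuctal cells in cluster 1 and 250 in cluster 2, whereas cluster 2 was the larger in the other mice, so the cluster mix differs between mice where type totals are compared.

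Ctrb1 was very uneven among MucinDuctal cells. Its coefficient of variation beyond counting error was 219% to 335% there and 19.9% to 28.5% in Acinar cells, while that of Cela1 was 66.4% to 109% and 51.9% to 89.3%. The 10% of MucinDuctal cells with the most Ctrb1 in each mouse (38, 139, 97 and 127 cells, a group chosen after this spread was seen) held 65994, 65605, 50568 and 59572 CPM of it, or 20.5% to 35.5% of the Acinar level. Since the cells were picked by Ctrb1, its excess over the other members is fixed by the choice. Cela1 was at 10.5%, 30.7%, 11.8% and 26.0% of its Acinar level in them and at 26.6%, 25.3%, 27.4% and 34.2% in the rest, lower in 3 of 4 mice. Cela2a was at 0.896% to 1.78% of its Acinar level and Ctrc at 1.07% to 2.27%. The remaining MucinDuctal cells had Cela2a at 0.625% to 1.69%. Metaplasia genes took 4.27% to 11.4% of UMIs in the high-Ctrb1 cells and 5.08% to 21.1% in the rest, at similar median depths (14838 to 22892 and 15131 to 21563 UMIs). No doublet caller was run, and the part of doublets in these cells was not tested.

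**Figure D4:**
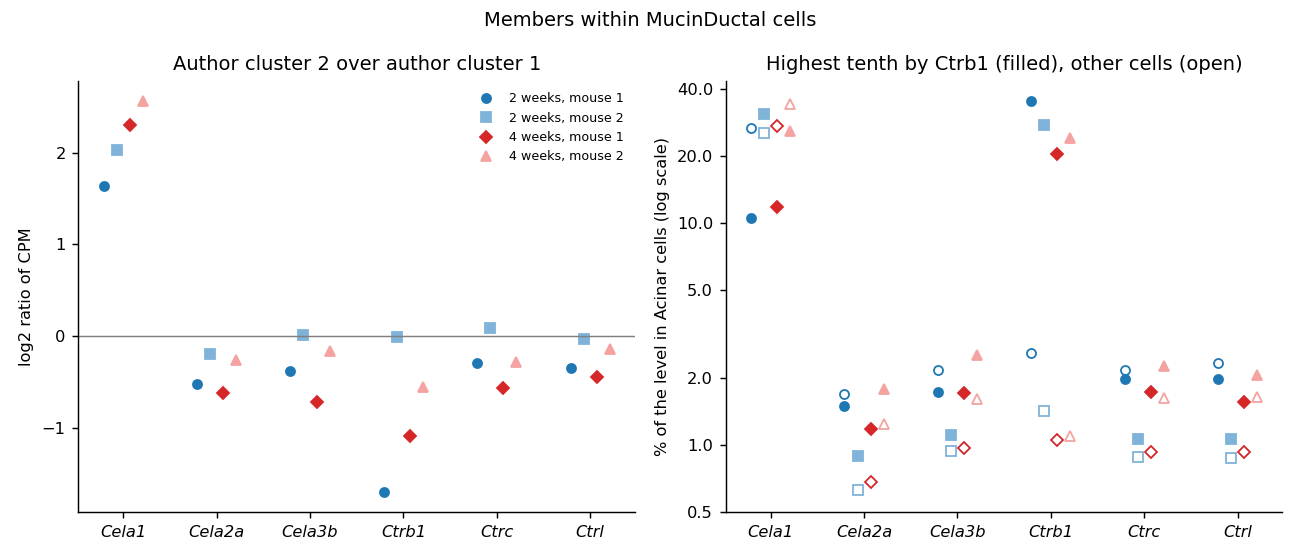
Within MucinDuctal cells, log2 ratio of CPM in the authors' cluster 2 over cluster 1 (left), and CPM as a percent of the Acinar level in the 10% of cells with the most Ctrb1 (filled) and in the others (open, right, log scale); 1 point per mouse. Of the 6 members Cela1 lies well above 0 on the left (1.64 to 2.57), and on the right the filled points are at 20.5% to 35.5% for Ctrb1, which chose the cells, and at or under 2.53% for Cela2a, Cela3b, Ctrc and Ctrl.

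Along the metaplasia gene share itself, cells of the Acinar, Acinar/MucinDuctal and MucinDuctal types were put in 4 bins, cut at 1%, 3% and 10% of UMIs outside the enzyme list. In the third bin the log2 difference of CPM from the lowest was -1.66 to -1.37 over mice for Cela1, and its mean ran from -2.38 ± 0.56 (Ctrb1) to -2.83 ± 0.75 (Cela2a) for the other 5 members. In the highest bin the log2 difference of CPM was -0.82 ± 0.60 for Cela1, against -4.19 ± 0.56 for Ctrb1 and -4.87 ± 0.85 for Cela2a. Scaled to UMIs outside the enzyme list, the differences were larger, at -1.80 ± 0.65 for Cela1, -5.16 ± 0.58 for Ctrb1 and -5.84 ± 0.80 for Cela2a. Cela1 was therefore lower in the third bin than in the highest on average. On the scale of UMIs outside the enzyme list it was at 4535, 1050, 3552 and 2451 in the third and at 4371, 2387, 4191 and 4775 in the highest bin, higher in 3 of 4 mice. In the second bin 2-week mouse 2 stood apart, with the CPM of Cela1 at a log2 of -1.03 while the highest mouse was at 0.61. It was the lowest mouse for the other members too, at -1.46 for Cela2a and -1.31 for Ctrb1. Its cells in that bin had a median of 146 Ctrb1 UMIs, against 2792 in 2-week mouse 1 and 3412 and 910 in 4-week mice 1 and 2. The cells of this bin were thus not alike between mice.

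**Figure D5:**
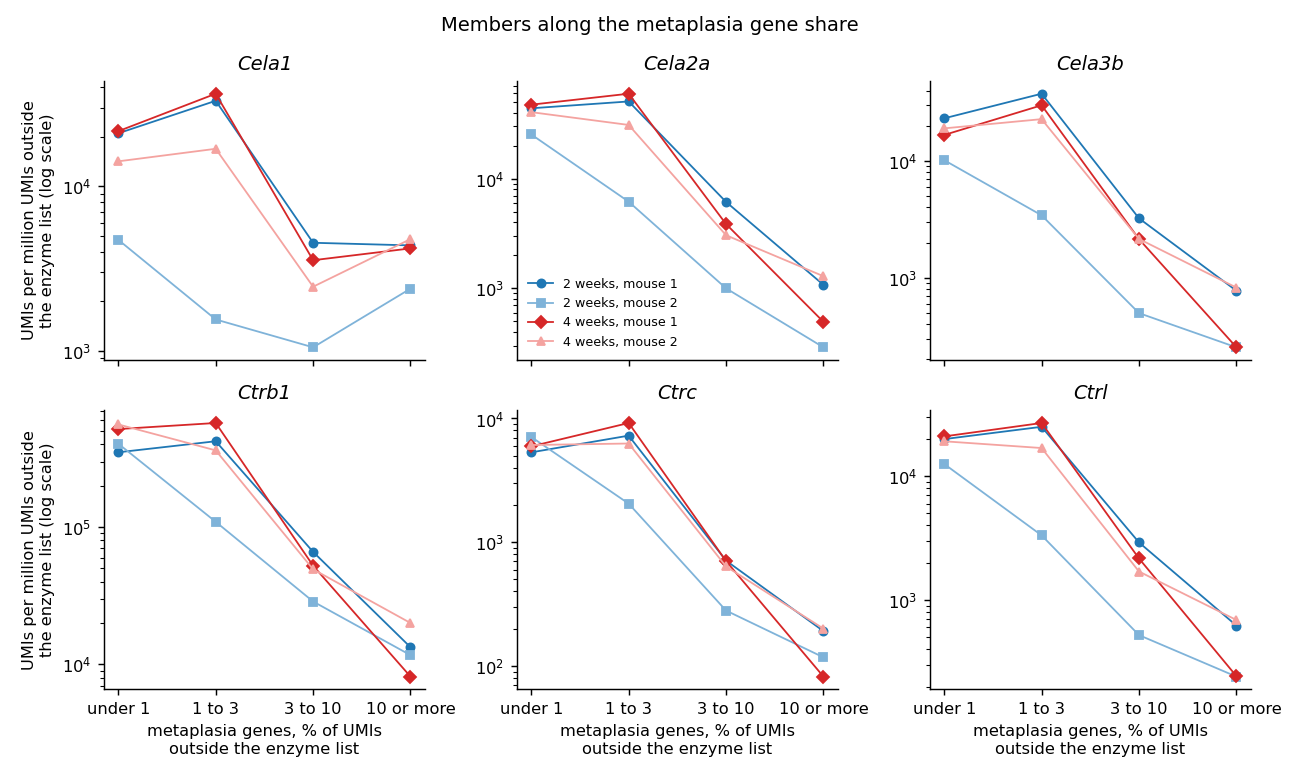
CPM of each member scaled to UMIs outside the enzyme list (log scale) in 4 bins of the share of metaplasia genes, 1 line per mouse, cells of 3 types pooled. The 5 members other than Cela1 are lowest on average in the highest bin, where the mean log2 differences from the lowest bin on this scale are -5.16 to -5.84, while Cela1 is at -1.80.

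Cell by cell, over MucinDuctal cells of 1 mouse, log2(CPM + 1) of Cela1 had a Pearson correlation of 0.57 to 0.76 with the metaplasia share, and that of the other members ran from -0.32 to 0.04. These cells share a library and their free RNA, so the values are descriptions. In Acinar cells the correlation of Cela1 with the metaplasia share was 0.16 to 0.53 and that of Cela3b was alike, at 0.09 to 0.56. It was -0.03 to 0.41 for Ctrc, -0.06 to 0.32 for Ctrl, -0.06 to 0.20 for Ctrb1 and -0.08 to 0.14 for Cela2a. Between members over Acinar cells, Cela1 went with Cela3b (0.62 to 0.75) and with Ctrc (0.53 to 0.63), while Ctrb1 was weakly related to Cela1 (0.06 to 0.22).

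Over 31 sums of 1 type in 1 mouse, the genes most like the mean of the members, among 8043 compared, included Serpini2 (r = 0.991), an acinar serine protease inhibitor, the granule proteins Zg16 (0.987) and Sycn (0.984), and the carboxypeptidase Cpb1 (0.986). Cela1 itself had r = 0.865 with the members' mean, below Cela2a, Cela3b, Ctrc and Ctrl (0.977 to 0.990) and Ctrb1 (0.953). That mean includes the member compared with it, so part of each of these r is built in. The genes most like Cela1 by the same measure, chosen after its values were seen, were Klk1 (0.961), Pla2g1b (0.954), Pdia2 (0.954), a pancreatic disulfide isomerase, Fkbp11 (0.944) and Tmed6 (0.929). The sums share mice and libraries, and no p is given.

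Between 2 and 4 weeks of caerulein no member changed by edgeR's quasi-likelihood test at an adjusted p of 0.05, in any of 7 types. In Acinar cells 0 of 7 members were called, where 0 of 12343 genes (0%) were. The log2 fold change, 4 weeks over 2 weeks, was 0.69 (SE 0.43) for Ctrb1, 0.81 (SE 0.82) for Cela1 and 0.60 (SE 0.45) for Cela2a, each with an edgeR adjusted p of 0.998. Leaving out 1 mouse at a time gave 0.64 to 0.75 for Ctrb1, 0.071 to 2.49 for Cela1 and 0.21 to 1.22 for Cela2a, the extremes of the last pair without 2-week mouse 2 (low) and without 2-week mouse 1 (high). Ctrb1 was the 1 member of 7 whose 4-week mice both lay above both 2-week mice, a separation seen in either direction in 62.6% of the genes tested. Of the 7 log2 fold changes 6 were above 0, with a median of 0.56 beside -0.03 for all genes. They use edgeR's TMM scaling, which brings the bulk of genes near 0, so they can differ from plain CPM. Ctrc was at 0.29 (SE 0.33), although its CPM were 2914 and 4413 at 2 weeks and 3286 and 3141 at 4 weeks. Of 23 other digestive enzymes tested, 22 were above 0 on the same scaling, with a median of 0.60 and 0 called.

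In MucinDuctal cells 0 of 6 members tested were called (0% of 13463 genes), and 1 of 6 log2 fold changes was above 0, that of Cela1 (0.74, SE 0.71, edgeR adjusted p = 0.867). Leaving out 1 mouse at a time gave 0.052 to 2.12 for Cela1 and -0.50 to -0.14 for Ctrb1. The ranges were -0.79 to 1.28 for Cela2a, -0.93 to 1.21 for Cela3b, -0.51 to 0.27 for Ctrc and -0.81 to 1.14 for Ctrl. The signs of Cela2a, Cela3b, Ctrc and Ctrl, and so the count above 0, thus depended on single mice. Ctrb1 lay lower in both 4-week mice (log2 -0.31, SE 0.34, edgeR adjusted p = 0.878), a separation found in 39.7% of genes. In Acinar.Prolif cells 0 of 7 were called (0.00995% of genes). The count was 0 of 7 in Acinar/MucinDuctal cells and 0 of 6 each in Ductal-like, Tuft and EEC cells, with 0% of genes called in each. EEC cells held the 2 members that passed edgeR's test before adjustment only, as did 479 of 11869 genes there: Ctrc (log2 -0.57, SE 0.13, edgeR adjusted p = 0.815) and Ctrb1 (log2 -0.58, SE 0.15, edgeR adjusted p = 0.986). Both were lower in each 4-week mouse than in each 2-week mouse, and 32.5% of genes were separated in 1 or the other direction there. Both also lay near the background: EEC cells held 0.766 to 1.80 of the UMIs per B cell marker cell for Ctrc and 0.978 to 2.29 for Ctrb1. Of the remaining types, 1 member was separated in Acinar.Prolif cells (31.7% of genes) and 0 in Acinar/MucinDuctal (32.4%), Ductal-like (34.8%) and Tuft cells (35.5%).

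At an unadjusted p under 0.05 edgeR passed 246 to 738 genes per type, of which 0 were members outside EEC cells. DESeq2 called 0 members in each type, where it called 0.0882% (Acinar), 0.0118% (Acinar.Prolif), 0.113% (Acinar/MucinDuctal), 0.22% (MucinDuctal), 0.163% (Tuft), 0.0732% (EEC) and 0.00602% (Ductal-like) of genes. With no filter on low counts, edgeR called 1 member in Acinar cells, Cela3a (log2 -2.30, edgeR adjusted p = 1.31e-14), where 1.48% of genes were called. That value rests on 2-week mouse 1: without it the log2 fold change of Cela3a was 4.35. The difference of the time effects between MucinDuctal and Acinar cells, with the mouse as a block, was called for 0 of 14098 genes (0%) by edgeR and 0 by DESeq2, and for 0 members. For Ctrb1 that difference was -1.04 on the log2 scale (SE 1.11, edgeR adjusted p = 1). With 2 mice a time point these values do not show that the members were unchanged.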

How the data were processed

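The authors deposited raw UMI counts per gene and cell for 4 mice, with cluster numbers and cell type names for the EYFP-positive cells. Per the submitters' processing notes, Cell Ranger 4.0.0, Seurat 3.2.3 and build mm10 were used. How types were named, the annotation and the authors' cell filters are not given in the sources used here. The EYFP-positive table equalled the same cells of the merged table (summed difference 0). No further cell filter and no doublet caller was applied.

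Each cell's mouse was read from the sample part of its name. Summed counts of each type and mouse (at least 20 cells) were used as CPM or UMIs per cell. Background cells were unlabelled cells with UMIs of at least 3 of 6 markers of 1 class, fewer than 3 of each other class, and no EYFP UMI. Time was tested with edgeR 4.0.16 (quasi-likelihood, TMM, filterByExpr, R 4.3.3), Benjamini-Hochberg adjusted over all genes of a type at 0.05, with DESeq2 1.42.0 as an alternative. The script was tested on simulated data. Ratios between types carry no test.

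The members, gene lists, bins and tests were chosen with earlier results of these data known. Named genes are the members, the 5 genes most like their mean (1 of which is not reported here), the other enzymes with the highest and lowest ratios in Acinar/MucinDuctal cells, and genes of the lists. The labels name separate mice, so p-values measure the spread between animals. Replicate numbers follow accession order and pair nothing.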

Additional observations from a re-analysis of the deposited data

Results flagged for a closer look

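Cells without a deposited type entered no comparison other than as background, yet some were rich in member RNA. Of 7778 such cells, 1694 (21.8%) had at least 10% of their UMIs from the 7 members: 378, 144, 357 and 815 in 2-week mice 1 and 2 and 4-week mice 1 and 2. With the mice pooled, their median depth was 2921.5 UMIs against 4279.5 in the other untyped cells, but this gap was not seen in every mouse. It was 2038.5 against 5799 in 2-week mouse 1 and 5529 against 5064 in 2-week mouse 2. In 4-week mice 1 and 2 it was 3604 against 3539 and 2868 against 3138.5. Of the 1694 cells 128 held an EYFP UMI. The study has no control sample to set beside this count. With 2 mice a time point, no group was large enough to look for a mouse far from its group.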

How the results depend on the processing

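The summed family was lower in both types than in Acinar cells under every setting run. Its log2 ratio in Acinar/MucinDuctal cells was -1.88 when scaled to UMIs outside the enzyme list, -2.78 on mean UMIs per cell and -2.88 with background UMIs subtracted, beside -1.17. In MucinDuctal cells these were -5.62, -5.22 and -5.96, beside -4.54. Leaving out 1 mouse at a time gave -1.21 to -1.07 and -4.71 to -4.43. Subtraction left Cela2a, Cela3b, Ctrc and Ctrl with a value in MucinDuctal cells of 2-week mouse 1 only, and Cela1 at -2.64.

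The family background was 21170 CPM in B cell marker cells (19378 to 22624 leaving out 1 mouse). It was 16259 in T cell, 14225 in macrophage, 7923 in fibroblast and 16337 in endothelial marker cells, 42747 in B cell marker cells with or without EYFP UMIs, and 64047 over all unlabelled cells.

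Genes called over time depended on the settings. For Acinar, Acinar.Prolif, Acinar/MucinDuctal, MucinDuctal, Ductal-like, Tuft and EEC cells DESeq2 called 17, 2, 21, 45, 1, 30 and 14. Without the gene filter edgeR called 286, 51, 128, 6, 81, 266 and 74 in the same order, and 19 for the difference between types. A fit that was not robust called 0 in Acinar.Prolif cells, and cells of at least 5000 UMIs gave 4 in Acinar/MucinDuctal cells; too few Ductal-like cells reached that depth. Leaving out 1 mouse gave 13 to 129, 5 to 143, 0 to 122, 0 to 191, 0 to 230, 5 to 273 and 0 to 366 genes, and 2 to 955 for the difference. The most calls came without 1 of the 2-week mice, with the lone mouse assumed to vary like the 4-week pair.

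Of 130 values of member time effects in Acinar and MucinDuctal cells with a p, 1 passed: Cela3a in Acinar cells without the gene filter (log2 -2.30, edgeR adjusted p = 1.31e-14), a gene at 27.3 CPM in 1 mouse. Signs turned when 1 mouse was left out. In Acinar cells the range was -5.32 to 4.35 for Cela3a and -0.091 to 1.20 for Cela3b. Without a turn of sign it was 0.071 to 2.49 for Cela1, 0.21 to 1.22 for Cela2a and 0.21 to 1.10 for Ctrl. In MucinDuctal cells without 2-week mouse 1, Cela2a, Cela3b, Ctrc and Ctrl came to 1.28, 1.21, 0.27 and 1.14, and without 4-week mouse 1 to 0.12, 0.11, 0.16 and 0.12. Their lowest values with 1 mouse left out were -0.79, -0.93, -0.51 and -0.81. The cause was not tested. No paired analysis was possible because replicate numbers only name the mice in accession order. Counts of Cela3a in Acinar cells were 3 to 1367 UMIs per mouse.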

Other observations

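Genes that serve the same granules were also spread out in MucinDuctal cells. Of 9 listed granule and inhibitor genes, the trypsin inhibitor Spink1 was at a log2 ratio to Acinar of -6.23 ± 0.65 (SD, n = 4 mice) and the granule protein Zg16 at -6.19 ± 0.63, close to Ctrl and Ctrc. The granule membrane protein Gp2 was at -3.97 ± 0.43, the acinar stress protein Reg1 at -3.19 ± 0.44, and Tmed6, a member of a family of cargo transport proteins, at -0.35 ± 0.62.

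Acinar transcription factors had ratios over a wide range. Ptf1a was at a log2 ratio of -5.21 ± 0.64 and its partner Rbpjl at -3.42 ± 0.45 in MucinDuctal cells, while Bhlha15 was at -1.51 ± 0.69 and Nr5a2 at -1.24 ± 0.13. Neither Ptf1a (0.835 to 2.90 CPM) nor Rbpjl (9.47 to 21.9 CPM) was above the range of B cell marker cells there (0 to 7.99 and 9.15 to 42.4 CPM). In Acinar/MucinDuctal cells Rbpjl was at -0.04 ± 0.47 and Ptf1a at -1.29 ± 0.65. All are CPM ratios on the scale where the median gene was at 1.26 in MucinDuctal and 0.92 in Acinar/MucinDuctal cells, and none was tested.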
